A study of Mus musculus with 8 samples.

Results

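The solute carriers of macrophages are described here: 120 genes whose symbol starts with Slc and a digit. They are 120 of the 252 such genes that could be named on the array after 10 were set aside (Slc2a1, Slc7a2, Slc7a11, Slc11a1, Slc11a2, Slc30a1, Slc30a4, Slc38a2, Slc39a14 and Slc40a1), and of 12394 named genes in all. They were chosen by their symbol and by their measured level: the quantile-normalised intensity had to exceed the median of all values, 88.2, on at least 1 of 8 arrays. That these genes are present is therefore how they were selected and not a finding. The other 132 stayed below that level on all arrays. The members nearest above the level were Slc18a1, Slc9b2 and Slc25a42, with highest intensities of 99.3, 101.7 and 102.8. Those nearest below it were Slc15a2, Slc2a9 and Slc17a9, at 84.7, 83.5 and 83.0.

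RNA came from bone marrow-derived macrophages of mice aged 6 to 8 weeks, grown for 7 days with M-CSF, which turns marrow cells into macrophages, and 10% serum. Wild-type C57BL/6 cells and Cd14-/- C57BL/6 cells were measured unstimulated, harvested 24 h after plating, and 6 h and 24 h after 1 µg/ml of lipopolysaccharide (LPS), a component of the bacterial outer membrane. Wild-type C57BL/6 cells were also measured 6 h and 24 h after 1 µg/ml of LPS in the presence of EGTA, a chelator of calcium outside the cell, at a concentration stated as 2 mM for the 24 h sample only. The LPS given to wild-type cells is labelled smooth, and that given to Cd14-/- cells has no such word. CD14 hands LPS to its receptor, and according to the design text the groups were compared to find what calcium entry adds to the response. No array held EGTA without LPS or Cd14-/- cells with EGTA, and the number of mice behind a culture is not given in the labels.

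Each of the 8 groups was 1 array. A difference between 2 arrays is therefore given as a fold with no p-value, and nothing checks it against the spread between cultures. Intensities below 38.4, the 40th percentile of all values, were raised to it as a floor. A difference against a value at the floor is a bound, written "at least". A gene entered a comparison if the brighter array exceeded 88.2, and differences of at least 2-fold were counted.

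Solute carriers are membrane proteins that move small molecules down or against a gradient, many by coupling them to sodium or protons. They take up sugars, amino acids and vitamins at the plasma membrane, exchange metabolites across the inner mitochondrial membrane, and carry zinc, copper, heme and peptides across vesicle and lysosome membranes. Activated macrophages shift between glycolysis and respiration, hold metals back from microbes and digest what they engulf, and all of these need transporters. The symbol is not proof of transport: Slc9a3r1 is a scaffold protein named after a sodium-proton exchanger, and Slc4a1ap is an adaptor protein, counted here in its family's class of ion carriers.

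Cd14 stood at 3849, 12515 and 8564 in wild-type cells at 0, 6 and 24 h, at 11088 and 5998 with EGTA, and at the floor in all 3 Cd14-/- arrays. No source used here says whether its probe set lies in the deleted part. All 10 macrophage markers exceeded the level on at least 1 array, and all but Cd14 did so on all 8. Their sum, Cd14 included, was between 62752 and 73706 over the arrays. The measured markers of T cells, B cells, dendritic cells and erythroid cells were at the floor on all arrays, and those of NK cells did not exceed the level. Of 8 neutrophil markers, S100a9, Ngp and Ltf were at the floor on all arrays, S100a8 and Csf3r were above the level on all 8 and Camp on 1, and the sum ran from 429 to 2807. Csf3r was 241 in unstimulated and 1706 in 24 h LPS wild-type cells. The mast cell marker Kit was above the level on the 2 unstimulated arrays only, at 171 and 143, and the stromal marker Dcn on the wild-type 24 h array only, at 192. Their part in the results below was not tested. In such bulk RNA, fewer cells of a type and less RNA per cell cannot be told apart.

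Most of the 120 genes were present throughout. On all 8 arrays 93 exceeded the level, while 9 had at least 1 array at the floor and 2, Slc18a1 and Slc25a42, exceeded it on 1 array only. Between its highest and lowest array a member differed by a median of 2.45-fold, beside 2.08-fold over the 7292 genes above the level on any array. The range reached 2-fold in 82 members (68.3%, beside 53.3% of all those genes) and 4-fold in 15 (12.5%, beside 15.7%). In at least 1 of the 9 comparisons 57 of the 120 members differed at least 2-fold, where 39.2% of all genes did, and 63 members did so in none. Among those 63 were Slc3a2, the heavy chain that carries several amino acid transporters to the surface, which stayed between 3591 and 6046, and Slc9a3r1, which stayed between 3572 and 4602.

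**Figure D1:**
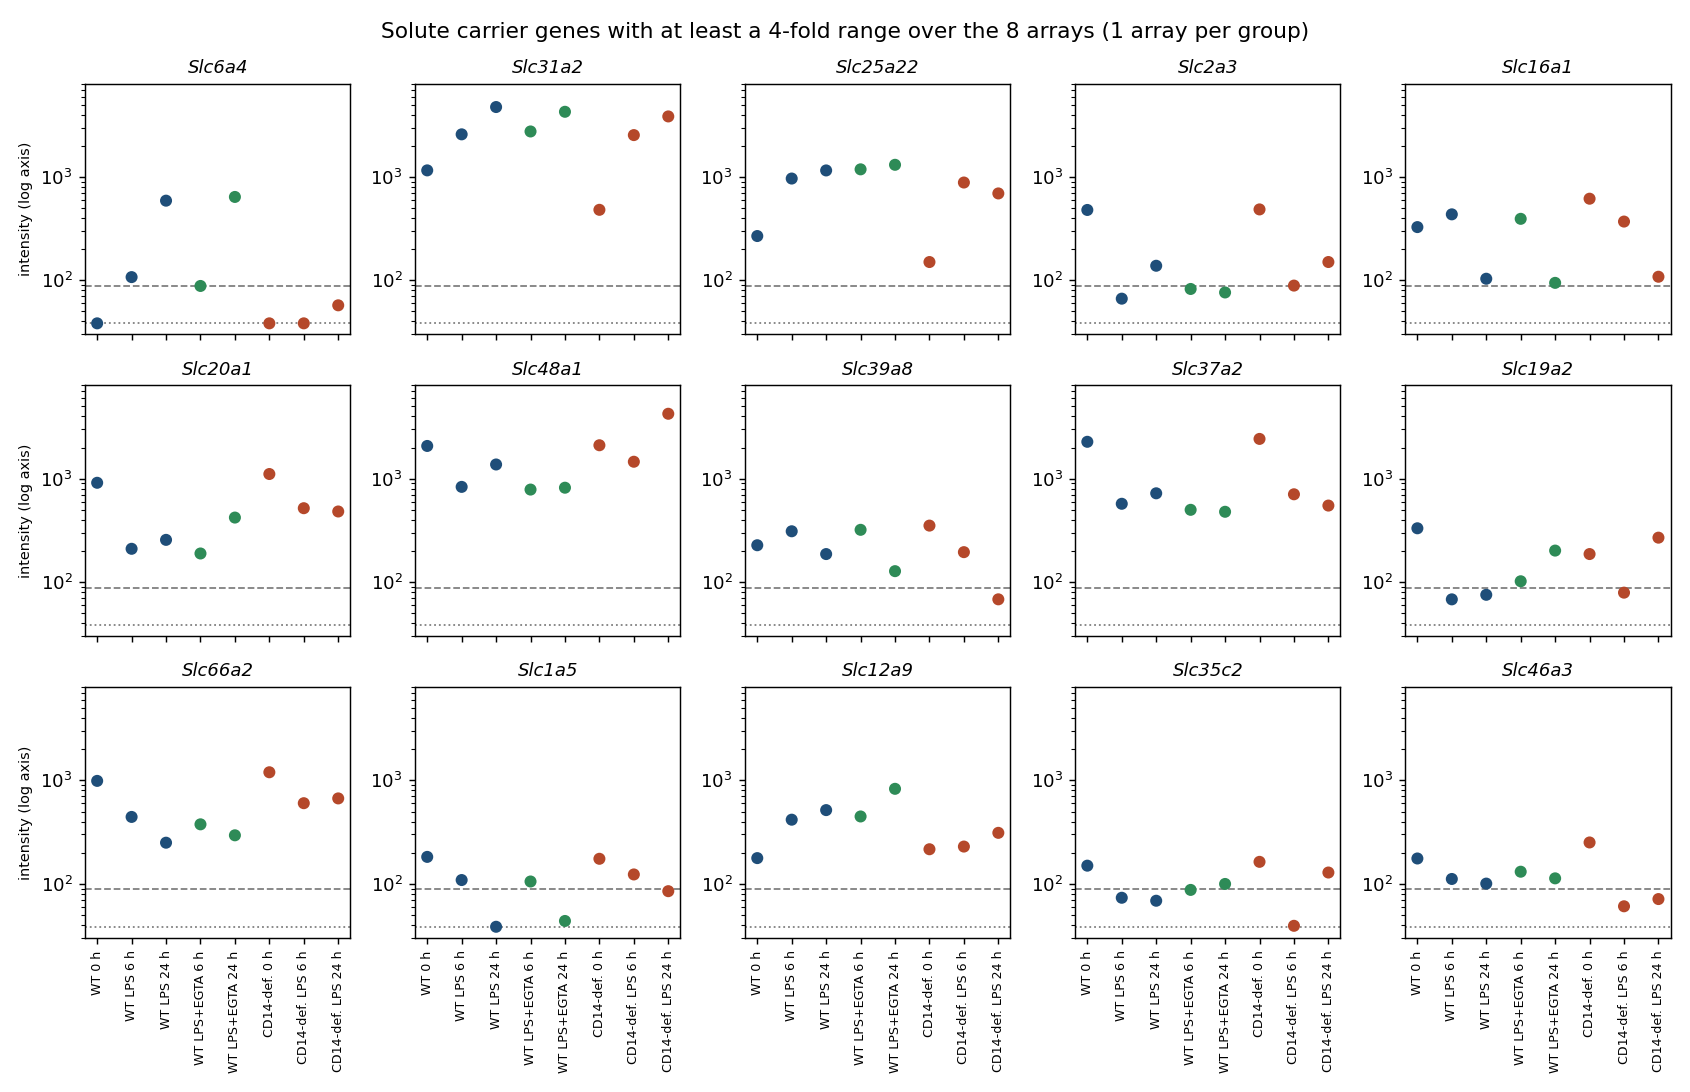
Intensity on a log axis for the 15 solute carrier genes with a range of at least 4-fold, 1 point per array (blue wild type, green wild type with EGTA, red CD14-deficient), with the floor of 38.4 as a dotted and the level of 88.2 as a dashed line. Slc31a2 and Slc25a22 are higher on every LPS array than on both unstimulated arrays, and Slc2a3, Slc37a2 and Slc20a1 are lower on every one.

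With LPS, lower members outnumbered higher ones after quantile normalisation with the brightest probe set per gene. In wild-type cells at 6 h, 11 of the 115 that entered this comparison were higher by at least 2-fold and 14 lower, where 10.5% of all genes compared were higher and 9.5% lower. At 24 h 10 of 113 were higher and 15 lower, beside 10.6% and 10.7%. In Cd14-/- cells 6 of 115 were higher and 13 lower at 6 h, beside 10.3% and 8.99%, and 5 of 115 were higher and 16 lower at 24 h, beside 8.29% and 8.77%. The members' median log2 differences in these 4 comparisons were -0.26, -0.12, -0.15 and -0.04, and those of all genes were -0.12, -0.07, -0.13 and -0.04. With intensities as deposited the splits were 9 and 21, 3 and 39, 4 and 32, and 4 and 17. All genes shifted downward there too, with median log2 differences of -0.17, -0.66, -0.46 and -0.20. With arrays scaled to equal medians the split of Cd14-/- cells at 24 h was 8 and 13, and the median of all genes was 0.13. With averaged probe sets fewer members were lower in wild-type cells at 24 h, and the members' median log2 difference there was 0.0007.

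**Figure D2:**
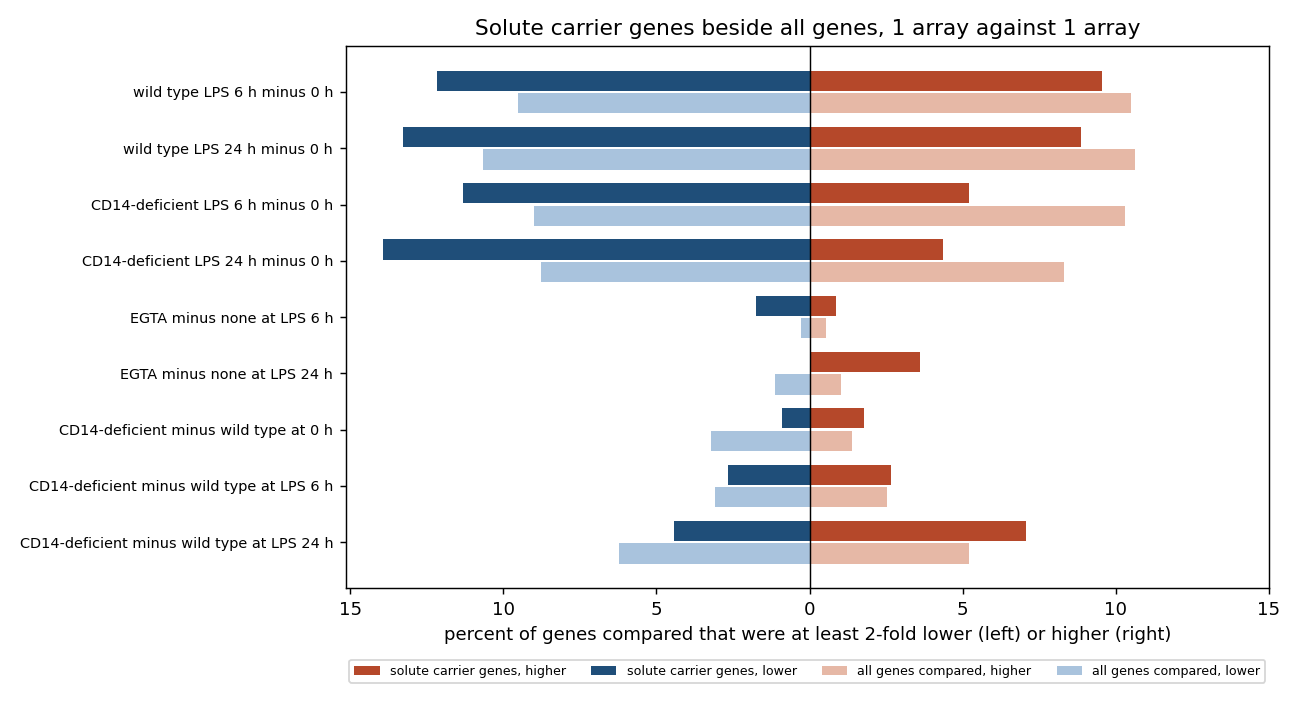
Percent of genes compared that were at least 2-fold higher (right, red) or lower (left, blue) in each of the 9 comparisons of 1 array with 1 array, dark bars for solute carrier genes and pale bars for all genes. The dark bars are longer to the left than to the right in the 4 LPS comparisons, with 14 against 11, 15 against 10, 13 against 6 and 16 against 5 members. The pale bars beside them are at 9.5% against 10.5%, 10.7% against 10.6%, 8.99% against 10.3% and 8.77% against 8.29%.

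Across all 4 LPS comparisons, 2 of 110 members were at least 2-fold higher, Slc31a2 and Slc25a22, where 3.92% of all genes were. Another 3 were lower in all 4, Slc20a1, Slc2a3 and Slc37a2, where 1.79% of all genes were. Slc31a2, a copper transporter of late endosomes and lysosomes, went from 1159 to 2586 and 4749.8 in wild-type cells and from 481 to 2542 and 3853 in Cd14-/- cells, and stood at 2757 and 4273 with EGTA. Slc25a22, a glutamate carrier of the mitochondrial inner membrane, went from 268 to 966 and 1157, from 150.4 to 884 and 693, and stood at 1186 and 1312 with EGTA. For both genes all 6 LPS arrays lay above both unstimulated arrays, with no overlap. The genes were chosen by the 4 comparisons, so this largely follows from the choice. How many of all genes lack such overlap was not counted, here or for the members described below. At 24 h Slc31a2 was 4.10-fold higher in wild-type and 8.01-fold higher in Cd14-/- cells, and Slc25a22 4.31-fold and 4.61-fold.

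The 3 that were lower throughout, chosen in the same way, had no overlap either. Slc2a3, which encodes the high-affinity glucose transporter GLUT3, went from 479.7 to 66.5 and 138 in wild-type cells, from 486 to 89.0 and 150.4 in Cd14-/- cells, and stood at 82.5 and 76.3 with EGTA. Slc37a2, a sugar-phosphate and phosphate exchanger of the endoplasmic reticulum, went from 2275 to 572 and 722, from 2426 to 707 and 549.6, and stood at 499.9 and 479. Slc20a1, a sodium-phosphate cotransporter that also serves as a retrovirus receptor, went from 913 to 209.8 and 256, from 1109.9 to 518 and 482, and stood at 189 and 421. At 6 h in wild-type cells the 3 genes were 7.21-fold, 3.98-fold and 4.35-fold lower. Slc2a3 was under 2-fold at 24 h in both genotypes when all its probe sets were averaged (log2 -0.81 and -0.78), and Slc20a1 in Cd14-/- cells with equal medians (-0.83 and -0.94).

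Promoters of the genes that moved together in all 4 LPS comparisons are shown because transcription factors of the LPS response bind such stretches. Promoters of 95 of the 120 members were matched by gene in RefSeq's table for GRCm38.p6, and Slc2a3 is named only. For each of the other 4 genes the 250 bases before its most upstream start are printed 5′ to 3′ in the gene's direction, with motif matches in capitals. The windows are chr4:62286179-62286428 on the plus strand for Slc31a2, chr7:141437875-141438124 on the minus strand for Slc25a22, chr9:37255739-37255988 on the minus strand for Slc37a2 and chr2:129198523-129198772 on the plus strand for Slc20a1.
Slc31a2: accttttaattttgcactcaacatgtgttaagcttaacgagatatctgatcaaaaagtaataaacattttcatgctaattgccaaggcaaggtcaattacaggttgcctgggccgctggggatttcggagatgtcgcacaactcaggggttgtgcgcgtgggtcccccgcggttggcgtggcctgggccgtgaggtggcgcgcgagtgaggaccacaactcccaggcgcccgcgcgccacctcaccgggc
Slc25a22: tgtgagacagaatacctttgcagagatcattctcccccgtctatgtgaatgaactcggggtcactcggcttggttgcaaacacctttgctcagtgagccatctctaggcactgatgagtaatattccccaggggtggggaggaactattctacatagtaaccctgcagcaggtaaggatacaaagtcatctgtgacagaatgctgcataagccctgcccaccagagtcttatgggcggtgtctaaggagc
Slc37a2: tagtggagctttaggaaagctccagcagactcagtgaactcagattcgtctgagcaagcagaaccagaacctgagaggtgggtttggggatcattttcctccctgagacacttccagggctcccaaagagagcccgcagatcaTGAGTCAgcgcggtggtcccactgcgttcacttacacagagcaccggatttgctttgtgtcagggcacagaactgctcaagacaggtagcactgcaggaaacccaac
Slc20a1: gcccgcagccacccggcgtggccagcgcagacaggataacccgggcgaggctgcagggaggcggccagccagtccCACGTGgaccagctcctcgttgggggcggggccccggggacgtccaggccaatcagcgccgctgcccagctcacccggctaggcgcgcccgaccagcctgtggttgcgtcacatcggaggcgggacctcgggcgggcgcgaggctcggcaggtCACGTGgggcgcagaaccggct
Searched on both strands were the core of the interferon-stimulated response element (GAAA, any 2 bases, GAAA), the NF-kB motif (GGG, any 2 bases, TTTCC), the AP-1 motif TGANTCA, where N is any base, and the E-box CACGTG. None of these strings contains another. The AP-1 letters occurred once, in Slc37a2, with the first base 107 bases before the start, and the E-box letters 2 times, in Slc20a1, 175 and 22 bases before it. Over all 27025 promoters of that length the 4 motifs occurred in 3.05%, 1.41%, 6.85% and 6.04%, and in 1, 1, 5 and 12 of the 95 members. Among the 23 members with a promoter that were at least 2-fold lower in an LPS comparison 3 held TGANTCA and 4 CACGTG. Among the 13 that were higher, 0 and 1 did. A match of letters is a description and not a binding site.

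Counts within the classes described next are small, and the shares of all genes they stand beside are those given above: in wild-type cells 10.5% (higher) and 9.5% (lower) at 6 h, then 10.6% and 10.7% at 24 h, and 10.3% and 8.99%, then 8.29% and 8.77%, in Cd14-/- cells. No class is singled out from them. Metal carriers form a class of 18 members, of which 2 were higher by at least 2-fold and 0 lower in wild-type cells at 6 h, 2 higher and 1 lower at 24 h, and 3 higher and 2 lower, then 2 and 2, in Cd14-/- cells. Both copper genes were high after LPS. Slc31a1, the main copper importer of the plasma membrane, read 734, 1093 and 1769.8 at 0, 6 and 24 h in wild-type cells, 529.7, 1293 and 1737 in Cd14-/- cells, and 994 and 1426 with EGTA. Every LPS array exceeded both unstimulated ones, by 2.41-fold at 24 h in wild-type cells. That difference was under 2-fold with intensities as deposited (log2 0.80).

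Zinc carriers went both ways. Slc39a6, a zinc importer, fell in the additive fit described below and read 1816, 1196 and 591 in wild-type and 2237, 955 and 893 in Cd14-/- cells, with 821 and 572 under EGTA. Slc39a8, an importer of zinc and manganese known as an NF-kB target in macrophages, read 227, 310.0 and 187 in wild-type cells, 320.2 and 128 with EGTA, and 352, 195 and 68.1 in Cd14-/- cells. Its lowest value, at 24 h in Cd14-/- cells, was 5.17-fold under the unstimulated array of that genotype and 2.74-fold under wild type at 24 h, the latter under 2-fold with intensities as deposited (log2 -0.98). Slc30a5 and Slc30a6 encode subunits of one zinc transporter of the secretory pathway. Slc30a5 read 823 and 1015 unstimulated and between 425 and 694 with LPS, and Slc30a6 read 459.9 and 420.5 unstimulated and between 632 and 845 with LPS. The subunit genes thus lay on opposite sides of their unstimulated levels, with no overlap for either. Slc30a3, a vesicular zinc transporter best known in neurons, was dim and irregular, reading 57.9, 133 and at the floor in wild-type cells, at the floor and 138 with EGTA, and 73.5, 113 and 137 in Cd14-/- cells.

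Of 7 sugar carriers 2 were lower and 0 higher in wild-type cells at both times, and 2 and 3 were lower in Cd14-/- cells. Beside Slc2a3 and Slc37a2, Slc2a8, an intracellular hexose transporter, read 247, 218 and 132 in wild-type, 348, 246 and 164 in Cd14-/- cells, and 247 and 117 with EGTA. Its 3 lowest values were those at 24 h. At 24 h Slc2a8 was 2.12-fold lower in Cd14-/- cells, and under 2-fold with equal medians (log2 -0.97). The glucose carrier Slc2a1, which is outside the members, went the other way from Slc2a3 at 6 h in wild-type cells, from 1083 to 2903 (2.68-fold higher), and read 916 at 24 h.

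The 4 monocarboxylate carriers, which move lactate, pyruvate and ketone bodies with protons, followed different courses. Slc16a1, the widely expressed lactate carrier MCT1, read 327, 435 and 104 in wild-type cells, 616, 370.4 and 108 in Cd14-/- cells, and 394 and 94.6 with EGTA. The 3 arrays at 24 h lay below all others, 3.16-fold under the unstimulated array in wild-type and 5.69-fold in Cd14-/- cells. Slc16a3, the lactate exporter MCT4 of glycolytic cells, read 316, 470.2 and 427 in wild-type, 551 and 607 with EGTA and 761, 777 and 1154 in Cd14-/- cells. All 3 Cd14-/- arrays exceeded all 5 wild-type arrays. Slc16a6 was low at 6 h only, at 135, 174 and 136, beside 309 and 299.9 unstimulated and 399, 428 and 342 at 24 h. Slc16a7 (MCT2) stood at 286 and 310.4 unstimulated and between 108 and 164 on the LPS arrays, with no overlap.

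Amino acid and peptide carriers, 17 members assigned by family number, counted 2 higher and 3 lower in wild-type cells at 6 h, 1 and 3 at 24 h, and 0 and 0, then 0 and 2, in Cd14-/- cells. Among the 17 are the serotonin carrier Slc6a4, the creatine carrier Slc6a8 and the nucleobase carrier Slc43a3. In wild-type cells Slc6a4 was the 1 member higher at 24 h and 1 of the 2 higher at 6 h. The largest difference of any member was that of Slc6a4, the serotonin transporter. It was at the floor in unstimulated wild-type cells and at 107 and 590.0 with LPS, at 88.2 and 641 with EGTA, and at the floor, the floor and 57.3 in Cd14-/- cells. Only the wild-type arrays with LPS exceeded the level, and the 24 h array was at least 15.4-fold above the unstimulated one. Slc6a4 was represented by 1 probe set.

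Glutamine carriers differed by time. Slc1a5, the plasma membrane glutamine transporter ASCT2, went in wild-type cells from 182 through 109 to the floor, in Cd14-/- cells from 174 through 123 to 84.8, and read 105 and 43.7 with EGTA. Under each condition the 24 h array was the lowest. Slc38a1, a sodium-coupled neutral amino acid transporter, peaked at 6 h, with 285, 823 and 207 in wild-type, 734 and 243 with EGTA, and 352, 507 and 321 in Cd14-/- cells. The 6 h array was 2.89-fold above the unstimulated one in wild-type cells, and the log2 difference in Cd14-/- cells was 0.53.

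Slc7a7 and Slc7a6 encode light chains that pair with Slc3a2 to exchange cationic for neutral amino acids, and loss of the human counterpart of Slc7a7 causes lysinuric protein intolerance, which affects macrophages. Slc7a7 read 257, 242 and 494 in wild-type, 304 and 470.0 with EGTA, and 565, 641 and 927 in Cd14-/- cells, where every array exceeded all 5 wild-type ones. Slc7a6 read 128, 88.8 and 43.1 in wild-type cells, 39.3 and 38.9 with EGTA, both next to the floor, and between 128 and 141 in Cd14-/- cells. Slc7a5, the leucine carrier that shares the same partner, was below the level on all arrays.

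Of the lysosomal amino acid and peptide carriers, 2 were lowest at 6 h in wild-type cells. Slc15a4, which exports histidine and peptides and is needed for signalling by endosomal Toll-like receptors, read 745, 322 and 893 in wild-type, 332 and 766 with EGTA, and between 614 and 677 in Cd14-/- cells. Slc66a1, an exporter of cationic amino acids, read 732, 275 and 733 in wild-type, 261 and 596 with EGTA, and 588, 358 and 681 in Cd14-/- cells. The related peptide carrier Slc15a3 was higher on all 6 LPS arrays, from 7347 to 9177, than unstimulated, at 5098 and 4567, by less than 2-fold in each comparison. Slc66a2, of the same family as Slc66a1, read 989 and 1199 unstimulated, 443, 376 and 602 at 6 h and 249.7, 294 and 669.7 at 24 h. All LPS arrays lay below both unstimulated ones.

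The 26 members of family 25, mostly carriers of the mitochondrial inner membrane, counted 2 higher and 2 lower in wild-type cells at 6 h, 2 and 3 at 24 h, and 2 and 2 at both times in Cd14-/- cells. Slc25a37 and Slc25a28 encode mitoferrins, which bring iron into mitochondria. Slc25a37 read 273, 294 and 463 in wild-type, 306 and 537 with EGTA, and 302, 1050.4 and 891 in Cd14-/- cells. Its 2 highest arrays were those of Cd14-/- cells with LPS. Slc25a28 read 273, 522 and 580.0 in wild-type, 731 and 664 with EGTA, and 259, 428 and 343 in Cd14-/- cells, so the wild-type arrays with LPS were the highest.

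Slc25a13, the aspartate-glutamate carrier citrin, read 501 and 819 unstimulated and between 210.1 and 312 on the 6 LPS arrays. Slc25a15, the ornithine carrier, read 138 and 157 unstimulated and between 45.4 and 104 with LPS. The groups did not overlap for either gene. Slc25a24, which exchanges ATP-Mg for phosphate, read 636 and 509 unstimulated and between 240.4 and 303 with LPS, again without overlap. Slc25a30 read 959 and 862 unstimulated and between 315 and 570.1 with LPS. When its probe sets were averaged, its log2 differences at 6 h in both genotypes and at 24 h in wild-type cells were under 2-fold (-0.95, -0.73 and -0.68). Slc25a17, a peroxisomal carrier of coenzyme A and related cofactors, was high at 6 h only, at 447, 464 and 427, beside 190.2 to 256 on the other 5 arrays. The ADP-ATP exchangers Slc25a4 and Slc25a5 and the phosphate carrier Slc25a3, none at least 2-fold different in any comparison, ranged over 2.77-fold, 1.66-fold and 1.72-fold. Slc25a3 fell at 24 h in the additive limma fit, by 0.54 on the log2 scale (adjusted p 0.048, Benjamini-Hochberg). That call was lost when any 1 of the 8 arrays was left out, with intensities as deposited and with equal medians.

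With 3.47-fold over 6 members, vitamin and heme carriers were the class with the widest median range after the phosphate carriers Slc20a1 and Slc20a2. Slc19a2, a thiamine transporter, read 331, 68.0 and 75.3 in wild-type, 102 and 202 with EGTA, and 187, 79.0 and 269 in Cd14-/- cells. It was low at 6 h on all 3 arrays, and at 24 h only in wild-type cells without EGTA. Slc48a1, which carries heme out of the phagolysosome, read 2074, 833 and 1372 in wild-type, 785 and 818 with EGTA, and 2107, 1459 and 4248 in Cd14-/- cells. The wild-type 24 h array lay between its 0 h and 6 h arrays, whereas in Cd14-/- cells the 24 h array was the highest of all 8. Slc23a2, a vitamin C transporter, was highest at 6 h, at 1884, 1834 and 1464, beside 868 to 1214 on the other 5 arrays. The lysosomal transporter Slc46a3 read 176 and 251 unstimulated, 100.4 to 131 on the wild-type arrays with LPS and 60.6 and 71.1 on the Cd14-/- ones. The reduced folate carrier Slc19a1 read 121 and 189 unstimulated, 123 to 140.1 at 6 h and 67.7 to 87.5 at 24 h.

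The 5 carriers of choline, fatty acids and acetyl-CoA counted 2 higher and 1 lower in wild-type cells at 6 h, 2 and 0 at 24 h, and 1 and 0, then 0 and 0, in Cd14-/- cells. Slc44a1, a choline transporter of the plasma membrane and mitochondria, read 1146 and 1102 unstimulated, 3202, 3097 and 3553 at 6 h and 2413, 2022 and 2001 at 24 h. All LPS arrays exceeded both unstimulated ones, by 2.79-fold and 3.23-fold at 6 h in the respective genotypes. Its relative Slc44a2, named here after its values were seen, was at least 2-fold higher in wild-type cells only, at 1011 to 1052 on the 4 wild-type LPS arrays beside 475 to 563 on the other 4. Those calls were lost with averaged probe sets at 6 h (log2 0.79) and as deposited at 24 h (0.59), and the difference between the genotypes was not tested. Slc27a1, a fatty acid transporter, read 2098, 769 and 1598 in wild-type, 914 and 1415 with EGTA, and 1372, 1074 and 1169.9 in Cd14-/- cells, so the unstimulated array was the highest in each genotype.

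Of the ion carriers 2 of 11 were higher and 0 lower in wild-type cells at 6 h, and 3 of 10 higher and 1 lower at 24 h. In Cd14-/- cells 0 of 12 were higher at either time, and 0 and 1 lower. Slc8b1, the mitochondrial sodium-calcium exchanger, read 376, 448 and 1007 in wild-type, 549 and 1153 with EGTA, and 324, 408 and 581 in Cd14-/- cells, highest at 24 h under each condition. The plasma membrane exchanger Slc8a1 was below the level on all arrays. Slc24a3, a potassium-dependent sodium-calcium exchanger, lay between 85.7 and 151 on the arrays at 0 and 6 h. At 24 h it read 81.2 in wild-type cells, 72.2 with EGTA and 43.5 in Cd14-/- cells, the lowest. Of the potassium-chloride cotransporters, Slc12a4 stood at 169 and 199 unstimulated and between 312 and 370.0 with LPS. Slc12a7 read 495, 859 and 356 in wild-type, 882 and 378 with EGTA, and 375, 282 and 322 in Cd14-/- cells, with peaks at 6 h in wild-type cells only. Slc12a9, of the same family, read 177, 417 and 516 in wild-type, 448 and 829 with EGTA, and 216, 229 and 311 in Cd14-/- cells. The 4 wild-type arrays with LPS were the highest. Slc12a2, the sodium-potassium-chloride cotransporter, was at the floor on both wild-type arrays at 24 h with LPS, with and without EGTA, and read 65.3 to 118 elsewhere.

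Nucleoside and nucleotide sugar carriers, 18 members that mostly feed glycosylation in the Golgi apparatus, varied least among the larger classes, with a median range of 1.90-fold. None was at least 2-fold higher in any LPS comparison, and 1, 1, 2 and 1 were lower. Slc35b2, which brings the sulfate donor PAPS into the Golgi apparatus, read 429 and 583 unstimulated and between 255 and 475 with LPS, where the Cd14-/- array at 24 h overlapped the unstimulated ones. Slc35c2 was dim, at 149.7 and 163 unstimulated and 39.2 to 128 with LPS. Slc29a3, a lysosomal nucleoside exporter, was lower in Cd14-/- cells, at 793, 948 and 1128, than on all 5 wild-type arrays, at 1367 to 1947, by less than 2-fold at each time.

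Members that stayed level included bright ones. The taurine carrier Slc6a6 ranged from 1916 to 2695 and the creatine carrier Slc6a8 from 1788 to 3105 over the 8 arrays. Slc25a39, needed for glutathione in mitochondria, ranged from 4015 to 5713. None of the 3 differed by 2-fold in any comparison. The order of levels between genes is not read here, since each probe set has its own brightness. Slc6a6, Slc6a8 and Slc25a39, like Slc12a2, Slc25a4 and Slc25a5 above, were chosen after their values were seen.

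**Figure D3:**
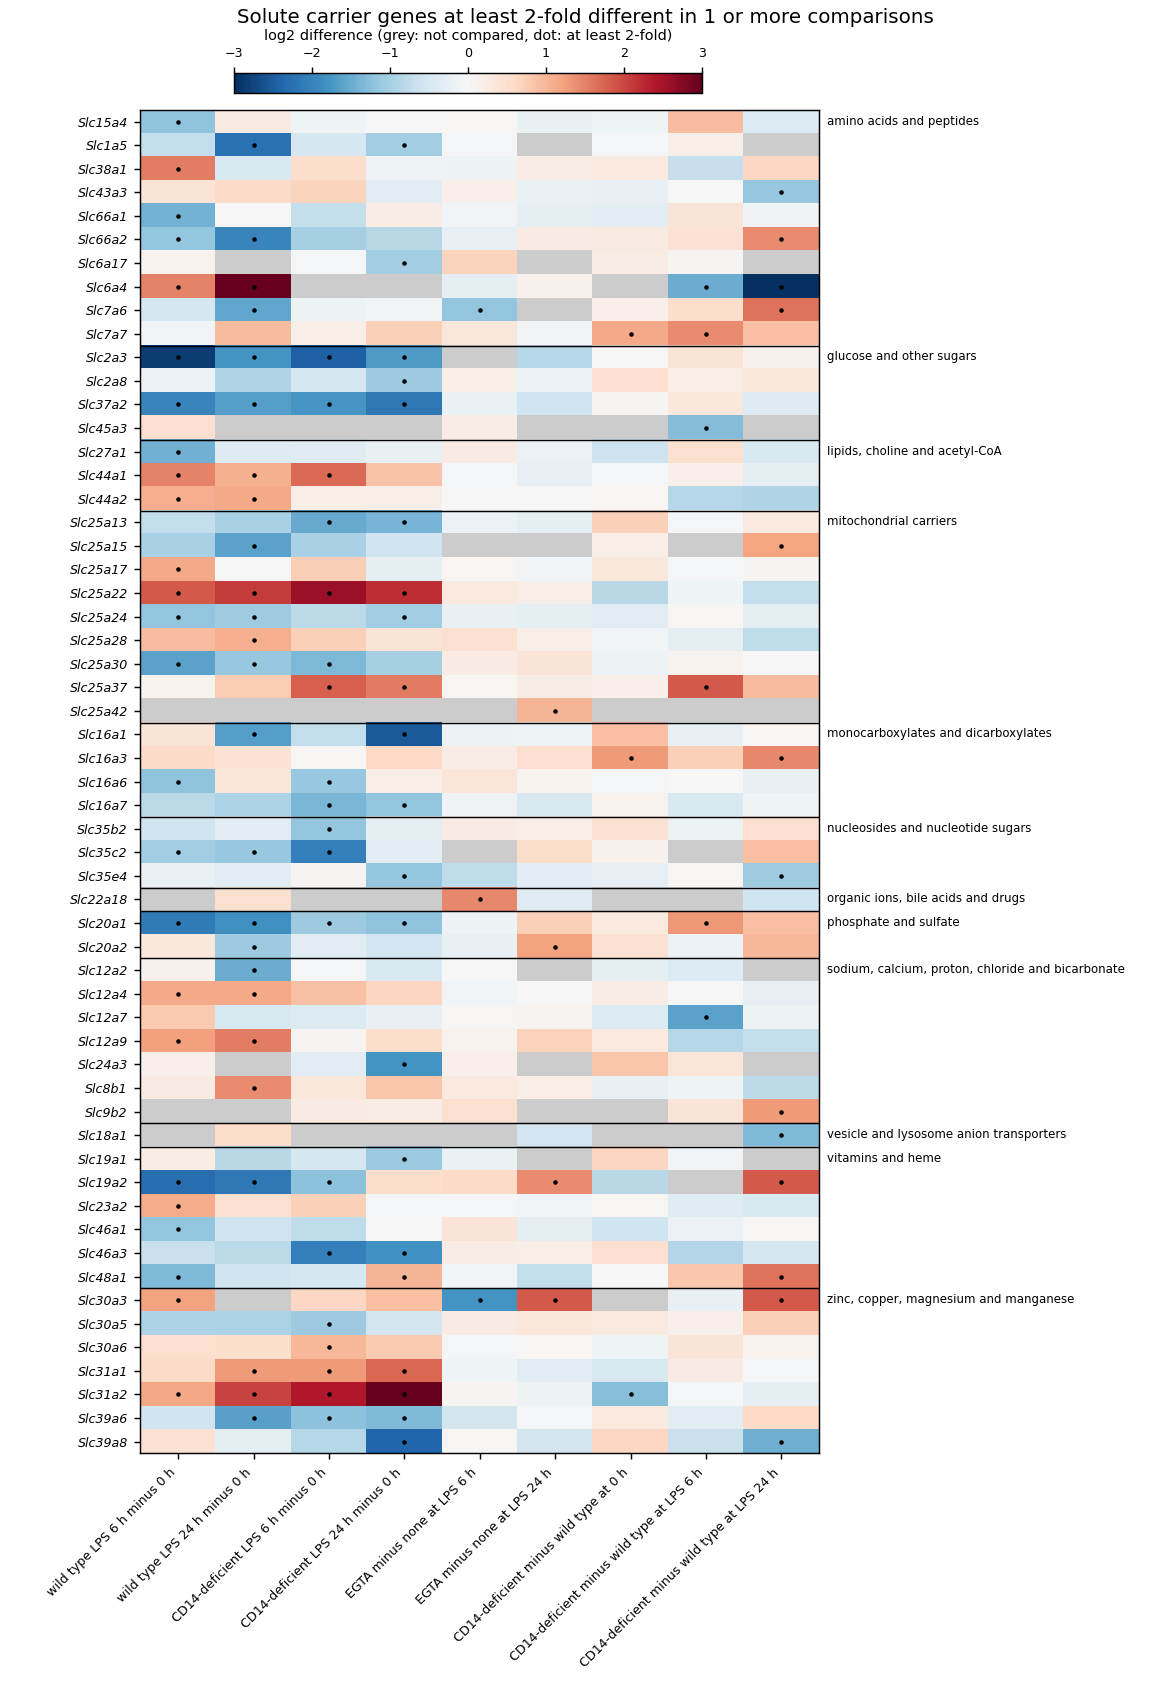
Log2 difference of the 57 solute carrier genes that differed at least 2-fold in 1 or more of the 9 comparisons (columns), by class, red for higher in the first-named group and blue for lower, grey where neither array exceeded the level, with a dot at each difference of at least 2-fold. The 4 LPS columns on the left hold most dots, and the 2 EGTA columns hold 7.

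The LPS responses of the genotypes share no array and can be set side by side. At 6 h 86 of 113 members compared in both had the same sign (76.1%, beside 78.7% of all genes), and the 24 of these that were at least 2-fold different in wild-type cells all had the same sign in Cd14-/- cells, where 95.9% of all such genes did. Of the 24, 10 were also at least 2-fold (41.7%, beside 63.1% of all such genes). At 24 h 89 of 110 had the same sign (80.9%, beside 75.7%), as did 23 of the 24 that were called in wild-type cells (95.8%, beside 92.6%), again 10 of them at least 2-fold (41.7%, beside 51.8%). Whether members differ from other genes in these shares was not tested. None was at least 2-fold in opposite directions at either time. The exception among these 24 was Slc19a2, with log2 differences of -2.14 in wild-type and 0.53 in Cd14-/- cells. Slc48a1 also had opposite signs, -0.60 and 1.01.

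**Figure D4:**
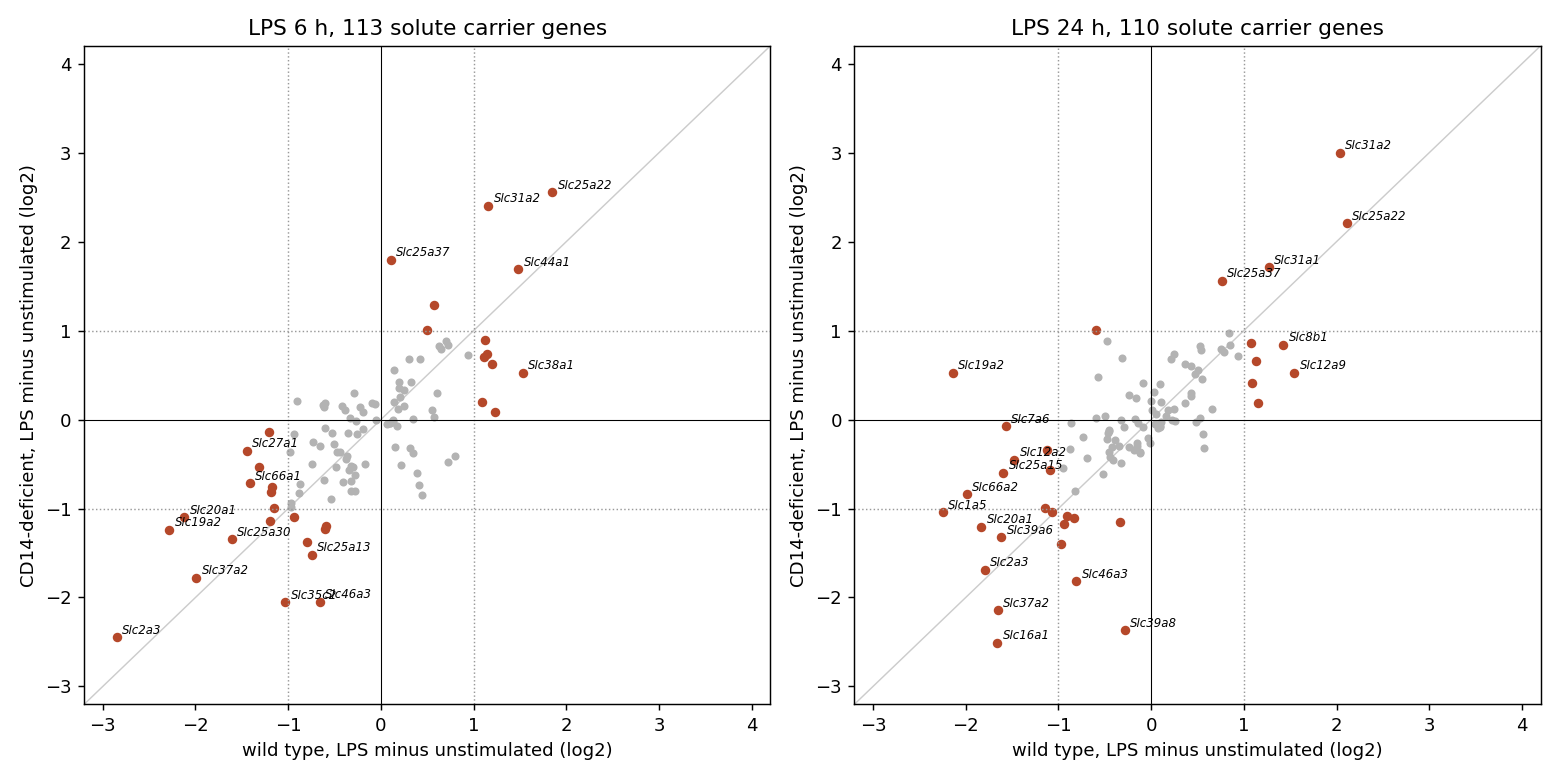
Log2 difference of LPS against unstimulated cells at 6 h (left, 113 genes) and 24 h (right, 110 genes), wild type on the horizontal and CD14-deficient on the vertical axis, 1 point per solute carrier gene, red where at least 2-fold in either genotype. Slc31a2 and Slc25a22 lie at the upper right and Slc2a3 and Slc37a2 at the lower left in both panels, and Slc19a2 lies in the upper left quadrant at 24 h.

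A fit in limma with additive terms for time and condition used all 8 arrays and all 7292 genes. It has 3 residual degrees of freedom, which measure departure from additivity and not the spread between cultures. For LPS at 6 h 13 members rose and 24 fell at an adjusted p (Benjamini-Hochberg) under 0.05, where 12.5% of all genes rose and 15% fell. At 24 h 16 rose and 20 fell, beside 12.5% and 14.2%. Largest among them were Slc25a22, with a log2 change at 6 h of 2.17 (SE 0.20, adjusted p 0.00257) by limma, Slc31a2, with 2.50 (SE 0.29, adjusted p 0.00436) at 24 h, Slc2a3, with -2.48 (SE 0.28, adjusted p 0.00358) at 6 h, and Slc16a1, with -2.11 (SE 0.27, adjusted p 0.00584) at 24 h. Slc6a4, with the largest fold of any member, did not pass, at a limma adjusted p of 0.055 for 24 h (log2 2.48, SE 0.74). Smaller changes that passed at both times were those of Slc15a3, Slc30a6 and Slc30a7, which rose, and Slc25a15, Slc30a5 and Slc46a3, which fell. Passing at 6 h only, and not described above, were Slc25a36, Slc25a45, Slc25a51, Slc35a4, Slc35a5, Slc35e1 and Slc35f6, which fell by between 0.51 and 0.90 on the log2 scale. At 24 h only, Slc6a17, Slc33a1, the acetyl-CoA carrier of the endoplasmic reticulum, and Slc39a11 fell, and Slc25a10, the dicarboxylate carrier, Slc25a20, which exchanges carnitine for acylcarnitine, and the zinc carrier Slc39a13 rose. Slc25a14 rose at both times, by 0.88 and 0.69. The calls of Slc35a5 at 6 h and of Slc25a20 and Slc30a7 at 24 h were lost when any 1 of the 8 arrays was left out.

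Those counts rest on single arrays. Without the wild-type 0 h or 6 h array 5 or 4 members rose and 6 or 5 fell at 6 h, and 11 or 12 fell without either EGTA array or the Cd14-/- 0 h or 6 h array. Counts over all 7292 genes moved too. Without the wild-type 0 h or 6 h array 531 or 427 of them rose and 412 or 281 fell at 6 h. Without either EGTA array 545 fell, without the Cd14-/- 0 h array 589 and without the Cd14-/- 6 h array 515. For 24 h, 3 members rose and 9 fell without the wild-type 24 h array, 7 and 12 without the wild-type 0 h array, 6 and 8 without the Cd14-/- 0 h array, and 10 and 12 without either EGTA array, and 10 rose without the wild-type 6 h array. Over all genes the counts were, in the same order, 351 and 348, 545 and 495, 488 and 330, 465 and 461, and 615. With intensities as deposited 3 members rose and 28 fell at 6 h and 4 and 27 at 24 h. Of all 7433 genes there, 513 rose and 1265 fell at 6 h, and 469 and 1142 at 24 h. Equal medians gave 16 and 18 at 6 h, where 1119 of all genes rose and 721 fell. At 24 h they gave more rising than falling members, 19 and 17, where 1203 of all genes rose and 697 fell.

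Fewer members differed between the genotypes than with LPS. Unstimulated Cd14-/- cells had 2 of 112 members at least 2-fold higher than wild type and 1 lower, where 1.4% and 3.2% of all genes were. Higher were Slc16a3 (2.41-fold) and Slc7a7 (2.19-fold), the latter under 2-fold with equal medians (log2 0.98), which left 1 higher. Lower was Slc31a2 (2.41-fold). At 6 h of LPS 3 of 113 were higher and 3 lower, beside 2.53% and 3.08%. With intensities as deposited the split was 3 and 9, and the median of all genes moved from 0.02 to -0.27. In the main setting the members were as follows. Higher were Slc25a37 (3.57-fold), Slc7a7 (2.66-fold) and Slc20a1 (2.47-fold), the last under 2-fold when probe sets were averaged (log2 0.69). Lower were Slc12a7 (3.05-fold), Slc6a4 (at least 2.80-fold) and Slc45a3 (at least 2.47-fold), whose brighter value was only 94.7.

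At 24 h of LPS 8 of 113 members were higher in Cd14-/- cells and 5 lower, where 5.21% and 6.21% of all genes were. Taken as deposited, intensities gave a split of 23 and 1, and the median of all genes moved from 0.02 to 0.43. Highest above wild type were Slc19a2 (3.57-fold), Slc30a3 (at least 3.56-fold), Slc7a6 (3.11-fold), Slc48a1 (3.10-fold) and Slc16a3 (2.70-fold), followed by Slc66a2 (2.68-fold, log2 0.62 when its probe sets were averaged), Slc9b2 (at least 2.41-fold; named after its values were seen) and Slc25a15 (2.28-fold). Furthest below were Slc6a4 (10.3-fold), Slc39a8 (2.74-fold) and the vesicular monoamine transporter Slc18a1 (2.50-fold), which exceeded the level on the wild-type array alone, at 99.3. Slc43a3, a nucleobase carrier, was 2.20-fold lower, and under 2-fold with intensities as deposited (log2 -0.63). Slc35e4 was 2.08-fold lower by the probe set used, while its other probe set had a log2 difference of 0.98 the other way. In the other 50 of 51 cases checked, a member at least 2-fold different had the same sign by a further probe set. Not every further probe set of a member was among these cases, and probe sets of a gene read the same RNA.

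In the additive limma fit 1 member differed between the genotypes at an adjusted p under 0.05 and none was lower, where 0.0686% of all genes were higher and 0.384% lower. Averaged over 0, 6 and 24 h, Slc7a7 was higher in Cd14-/- cells by 1.15 (SE 0.14, adjusted p 0.0433) by limma with Benjamini-Hochberg adjustment. It was higher than wild type in 3 of 3 pairs of arrays at the same time. The fit used those same pairs, so their agreement is no separate support. The limma call was lost when any 1 of the 8 arrays was left out, and with equal medians (adjusted p 0.0575). Next were Slc16a3, with 1.14 (SE 0.17, adjusted p 0.0748) by limma, and Slc29a3, with -0.76 (SE 0.12, adjusted p 0.084) by limma. Each had the same sign in 3 of 3 pairs, which the fit also used, and neither passed. Slc16a3 passed with intensities as deposited, and both passed with the level at the 75th percentile, where fewer genes were tested. The LPS arrays of wild-type cells enter both this comparison and that with EGTA, so the 2 are not independent.

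Few members differed with EGTA. At 6 h of LPS 1 of 114 was at least 2-fold higher and 2 lower, where 0.549% and 0.267% of all genes were, and at 24 h 4 of 111 were higher and 0 lower, beside 1.02% and 1.11%. The median absolute log2 difference of members was 0.18 and 0.22, beside 0.54 and 0.49 for LPS against unstimulated wild-type cells. All 3 members at 6 h were dim on at least 1 side: Slc30a3 went from 133 to the floor, Slc7a6 from 88.8 to 39.3, and Slc22a18 went from the floor to 105. In the intensities as deposited, where the EGTA 6 h array had the lowest median of all, 0 were higher and 17 lower, and the median of all genes was -0.78. The 4 members higher at 24 h were Slc30a3 (at least 3.59-fold), Slc19a2 (2.68-fold, 75.3 to 202), Slc20a2, a phosphate cotransporter (2.31-fold, 46.9 to 108), and Slc25a42, a mitochondrial coenzyme A carrier (2.02-fold, 51.0 to 103), the last under 2-fold with equal medians (log2 0.97). Slc30a3 was thus lower with EGTA at 6 h and higher at 24 h. No member passed the additive limma fit for EGTA (smallest adjusted p 0.699, for the sulfate transporter Slc26a2), where 0% of all genes did in either direction. An unadjusted limma p under 0.05 was found for 9 of the 120 members, beside 415 of all 7292 genes. Slc26a2 read 612 and 564 with EGTA and between 290.3 and 372 on the other 6 arrays.

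Enzymes and partner proteins that handle the same substrates were listed beside the carriers, 30 genes of which 25 were measured. Of 22 compared, 6 were at least 2-fold higher and 2 lower in wild-type cells at 6 h, 4 and 3 at 24 h, and 4 and 2, then 5 and 2, in Cd14-/- cells, beside the shares of all genes given above (10.5% higher and 9.5% lower in wild-type cells at 6 h). Acod1, which makes itaconate from a mitochondrial intermediate, went from 629 to 10967 in wild-type cells and from the floor to 11699 in Cd14-/- cells. Hk1, a hexokinase that traps glucose after its uptake, went from 1116 to 2846 at 6 h in wild-type cells. Glul, the glutamine synthetase, read 1878, 831 and 583 at 0, 6 and 24 h in wild-type cells. Bsg, the chaperone of Slc16a1 and Slc16a3, stayed between 1844 and 2942 on all arrays.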

How the data were processed

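RNA from 8 groups of cultured mouse macrophages was measured on 1 Affymetrix array per group. The authors deposited linear intensities computed with MAS5, per the submitters' processing notes. No source used here states the scaling target or software version. The deposited medians of the arrays ran from 55.9 to 119. Of 22690 probe sets, 20393 name 1 gene in the platform annotation, 691 name several and were not used, and 1606 are unnamed here. Symbols were updated through gene identifiers for 20364. The deposited intensities were quantile normalised over the 8 arrays, raised to a floor at the 40th percentile (38.4) and put on the log2 scale. The brightest probe set by mean log2 stood for a gene, which was compared where the brighter array exceeded the median (88.2).

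Differences between single arrays were counted at 2-fold. The additive fit (time and condition) used lmFit and eBayes of limma 3.58.1 in R 4.3.3 with Benjamini-Hochberg adjustment over 7292 genes. It was tested on simulated data. Other steps used Python 3.11.15, numpy 2.4.6 and pandas 2.3.3. Alternatives were the intensities as deposited, arrays scaled to equal medians, a floor at the 20th percentile, the mean of a gene's probe sets, a level at the 75th percentile and leaving out each array. The number of arrays limits the precision.

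Members, lists and tests were chosen with earlier results of these data known. Named were up to 6 of the largest differences of at least 2-fold each way in a comparison, the 2 widest members of a class, a set of 18 listed carriers and members past the adjusted p. Slc6a6, Slc6a8, Slc9b2, Slc12a2, Slc25a4, Slc25a5, Slc25a39, Slc26a2 and Slc44a2 fall outside that rule and were chosen after their values were seen. Of the listed carriers, Slc7a5 and Slc8a1 were below the level on all arrays, and Slc2a6, Slc25a1 and Slc28a2 were not analysed here.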

Additional observations from a re-analysis of the deposited data

Results flagged for a closer look

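The thiamine transporter Slc19a2 and the heme transporter Slc48a1 were singled out because the genotypes lay on opposite sides of their own unstimulated array after 24 h of LPS, by at least 0.5 on the log2 scale each way. Slc19a2 had a log2 difference of -2.14 in wild-type and 0.53 in Cd14-/- cells. Slc48a1 had -0.60 in wild-type and 1.01 in Cd14-/- cells. The difference between the genotypes was not tested, since each value compares 1 array with 1 array. Both genes kept these directions with intensities as deposited, equal medians, the lower floor and averaged probe sets. Short of 0.5 were Slc48a1 in wild-type cells with equal medians (-0.21) and Slc19a2 in Cd14-/- cells with intensities as deposited (0.27). With EGTA, the wild-type array at 24 h stood at 201.6 for Slc19a2 and 818 for Slc48a1.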

How the results depend on the processing

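The floor at the 20th percentile moved no count by over 1.5 times. With intensities as deposited the wild-type 24 h response had 3 members higher and 39 lower, the Cd14-/- 6 h response 32 lower, EGTA at 6 h 0 higher and 17 lower, Cd14-/- against wild type 9 lower at 6 h and 23 higher and 1 lower at 24 h, and limma 3 higher at 6 h, 4 higher at 24 h, and 3 higher and 1 lower for CD14 deficiency. There the median of all genes moved to -0.66 and -0.46 for the first 2 of these, to -0.20 for Cd14-/- cells at 24 h, to -0.78 and 0.16 for EGTA at 6 and 24 h, and to -0.27 and 0.43 between genotypes. Equal medians moved it to 0.04, 0.12, 0.08 and 0.13 in the 4 LPS comparisons and to -0.10 between genotypes at 24 h, and gave 8 higher in Cd14-/- cells at 24 h, 1 higher in unstimulated Cd14-/- cells and 0 higher for CD14 deficiency by limma. Averaged probe sets gave 9 lower in wild-type cells at 24 h and 0 higher and 1 lower for EGTA at 6 h. The level at the 75th percentile, which leaves fewer genes to compare, gave 7 higher in wild-type cells at 6 h, 7 lower at 24 h, 8 and 7 lower in Cd14-/- cells, 0 higher and 0 lower for EGTA at 6 h, 0 higher at 24 h, 1 lower in Cd14-/- against wild type at 6 h, 3 higher and 1 lower at 24 h, and 2 higher and 1 lower for CD14 deficiency by limma. Where no other reason is given the cause was not tested.

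Leaving out each array in turn, limma gave 4 to 14 members higher and 5 to 25 lower at 6 h, 3 to 13 higher and 8 to 22 lower at 24 h, and 0 higher for CD14 deficiency. Over all genes it gave 427 to 969 higher and 281 to 1303 lower at 6 h, and 351 to 899 higher and 330 to 1131 lower at 24 h. Of 119 differences of at least 2-fold, tried under up to 5 alternatives, 493 values stayed at 2-fold or more, 39 kept the direction but fell short of 2-fold, and 0 reversed. With intensities as deposited, those that fell short included Slc12a4 (0.94 and 0.39 at 6 and 24 h in wild-type cells), Slc25a17 (0.97), Slc25a28 (0.42), Slc44a1 (0.70), Slc44a2 (0.59), Slc8b1 (0.85) and Slc12a9 (0.85). No paired analysis was possible because each group is 1 array and the labels give no replicate numbers that tie arrays together. Arrays were matched by time only, as a term of the limma fit. Dim members, such as Slc18a1, Slc25a42, Slc30a3 and Slc45a3, have values near the floor, and a difference against it is only a bound.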

Other observations

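Transporters outside the solute carrier symbols were also measured. Of 36 listed genes of the ATP-binding cassette family, pumps that use ATP, 22 exceeded the level on an array. In wild-type cells 1 of 20 compared was at least 2-fold higher and 2 lower at 6 h, where 10.5% and 9.5% of all genes were, and 2 of 21 higher and 7 lower at 24 h, where 10.6% and 10.7% were. Cd14-/- cells had 2 and 2 of 19 at 6 h (10.3% and 8.99% of all genes) and 2 and 4 of 19 at 24 h (8.29% and 8.77%). Abcc5, a cyclic nucleotide exporter, read 257, 441 and 922 in wild-type, 472 and 1179.8 with EGTA, and 236, 717 and 859 in Cd14-/- cells, highest at 24 h under each condition. Abca1, the cholesterol exporter, stood at 3521, 5109 and 5294 in Cd14-/- cells, above all 5 wild-type arrays, which ran from 1939.9 to 2781. Abcc1, the glutathione conjugate exporter, was low on the wild-type 24 h arrays, at 363 without and 304 with EGTA, and read 1328 in Cd14-/- cells at that time.

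Of 11 organic anion transporters with Slco symbols, Slco3a1 exceeded the level on an array and the others did not. It read 199, 2086 and 2649 in wild-type cells, 1948 and 2087 with EGTA, and the floor, 928 and 682 in Cd14-/- cells. All 6 LPS arrays lay above both unstimulated ones. Slco3a1, Abcc5, Abca1 and Abcc1 were chosen after their values were seen.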
